A study of Brassica juncea with 4 samples.

Results

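The microRNA miR393 and the auxin receptor transcripts at which its cleavage was mapped were examined in floral buds of Brassica juncea. The members were selected on name for the miRNA (every miR393 entry) and on listed degradome sites for the genes (every row that pairs a transcript with a miR393 entry). This gave 1 distinct miRNA sequence of 248 in the small RNA data, and 4 cleavage sites of 519 in 4 genes of 445 in the degradome data, with 1 transcript isoform counted per gene. The degradome reads chose the sites, so their reads are described here without a test.

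The CMS line, a cytoplasmic male-sterile B. juncea, carries a cytoplasm from B. rapa in a nucleus recurrently backcrossed to fertile B. juncea. The MF line is its fertile maintainer, kept by selfing. Both lines were sampled in flower under long days, and the buds of whole inflorescences from several plants were pooled for each. Each line gave 1 small RNA library and 1 degradome library, 4 libraries in all, so no difference below has a replicate check and each compares a pair of libraries. No transgene or treatment is given for the plants of these libraries. The small RNA libraries held 3192676 mappable reads in CMS and 7331757 in MF, and the degradome libraries 4967302 cDNA-mapped reads in CMS and 7717843 in MF.

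TIR1 and the related AFB proteins are F-box proteins that bind auxin and, as parts of a ubiquitin ligase, mark Aux/IAA repressors for breakdown, which frees auxin response factors (ARFs) to act. In Arabidopsis, miR393 guides the cutting of TIR1 and AFB transcripts, and auxin received through these receptors takes part in stamen filament growth, anther opening and pollen maturation. A degradome library reads the 5′ ends of uncapped, polyadenylated RNA, so cutting by a miRNA appears as a pile of reads that begin at 1 position opposite the middle of the miRNA.

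The mature sequence is printed because every site below was found by its alignment to it. It was 22 nt long and was deposited in DNA letters under 2 names, ath-miR393a and ath-miR393b. The capitals mark the seed, bases 2 to 8, in the first line. They mark bases 10 and 11, the pair at which slicing is expected, in the second.
miR393, seed: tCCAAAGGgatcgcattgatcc
miR393, bases 10 and 11: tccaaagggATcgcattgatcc

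The Arabidopsis hairpins to which it was assigned are shown next, on the plus strand of the Arabidopsis build TAIR10, with the mature miRNA in capitals. MIR393a lay at chr2:16652094-16652240 (147 bases, folding energy -53.8 kcal/mol) and MIR393b at chr3:20691647-20691806 (160 bases, -56.9 kcal/mol).
MIR393a: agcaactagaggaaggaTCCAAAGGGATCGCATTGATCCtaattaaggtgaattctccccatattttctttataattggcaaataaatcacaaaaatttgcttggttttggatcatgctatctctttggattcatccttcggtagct
MIR393b: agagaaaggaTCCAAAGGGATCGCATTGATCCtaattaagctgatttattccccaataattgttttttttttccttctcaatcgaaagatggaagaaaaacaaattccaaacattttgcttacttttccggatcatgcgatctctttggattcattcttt
In both hairpins the mature sequence sat on the 5′ arm, from base 18 to 39 in MIR393a and from base 11 to 32 in MIR393b. The 2 loci cannot be told apart from the miRNA, since both give the same 22 letters. No entry came from the opposite arm of either hairpin (0 entries), and none of the other sequences shared the seed.

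miR393 made up a small share of the miRNA reads in both libraries, 0.00666% in CMS and 0.0110% in MF. In whole buds, fewer cells of a type and less RNA per cell cannot be told apart. miR393 had 7 raw reads in the CMS library (95% Poisson interval 2.81 to 14.4) and 10 in the MF library (4.80 to 18.4). These intervals, like all below, cover counting error only, since reads copied by PCR are not independent molecules. In CMS 83 of the 248 distinct sequences had more reads, and in MF 92 did. Among the 22-nt sequences with reads, miR393 was exceeded by 5 of 15 in CMS and by 6 of 20 in MF. The other miRNA families that act on auxin signalling in Arabidopsis had far more reads: miR160, which targets ARF10, ARF16 and ARF17, had 3501 in CMS and 4448 in MF over its sequences. miR167, which targets ARF6 and ARF8, had 896 in CMS and 8111 in MF. miR390, which starts the production of small RNAs against ARF2, ARF3 and ARF4, had 566 in CMS and 381 in MF.

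No difference in miR393 between the 2 small RNA libraries was detectable at this depth. By quantitative PCR with biological replicates, the paper reports ath-miR393a as down-regulated in CMS buds. It also reports a decrease in MF treated with oligomycin, a mitochondrial inhibitor, and a relatively larger one in treated CMS. The deposited normalized values were 8 in CMS and 9 in MF. With the factors behind those values, the raw reads gave a CMS over MF ratio of 0.871 (exact 95% interval 0.282 to 2.54). The Audic-Claverie probability was 0.0927, and the exact two-sided Fisher test gave p = 1. The chi-squared approximation gave 0.808. The limit after division by the 248 sequences was 0.01/248, and 35 sequences (14.1%) were called between the 2 libraries, 13 higher and 22 lower in CMS. Scaled by mappable reads, 19 were called, 16 higher and 3 lower in CMS. The direction for miR393 depended on the scaling: as RPM (here reads per 1000000 mappable reads) it had 2.19 in CMS and 1.36 in MF, a ratio of 1.61 (0.519 to 4.68), and it was not called with that scaling either. A change of scale shifts the log2 ratio of every sequence by the same amount, so the turn is no property of miR393. For reference, 86 sequences were found in both libraries with a sum of 20 or more raw reads. Their median log2 ratio of CMS over MF was -0.03 with the deposited factors and 0.85 with mappable reads.

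The cleavage sites lay on TIR1 and on 3 of its relatives, AFB1, AFB2 and AFB3. TIR1 (AT3G62980, chr3:23273116-23276375, reverse strand) was cut at nucleotide 1722 of a 2342-nt cDNA. AFB1 (AT4G03190, also named GRH1, chr4:1404887-1407139, reverse strand) was cut at nucleotide 1598 of 2061. AFB2 (AT3G26810, chr3:9867845-9870640, forward strand) was cut at nucleotide 2010 of 2401, and AFB3 (AT1G12820, chr1:4368760-4371293, reverse strand) at nucleotide 1895 of 2229. Coordinates are those of the Arabidopsis gene models in the deposited annotation, because the reads of B. juncea were mapped to Arabidopsis cDNA. AFB4 and AFB5, the remaining receptors of the family, were not listed with any miRNA in either library, and neither was COI1, the jasmonate receptor of the same F-box group.

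The 4 sites shared their geometry. Each fell in the later part of the cDNA, 73.5% (TIR1), 77.5% (AFB1), 83.7% (AFB2) and 85.0% (AFB3) of the way along it. In each, the first base of the cut fragment lay opposite base 10 of miR393, the first capital in the second line of the mature sequence above. That position held for 431 of the 519 sites of all miRNAs (83.0%). Sites were listed by how reads lie in an alignment to a miRNA, so this position is a description and no separate evidence of slicing. The alignment score, which rises with mismatches, was 2 for TIR1, AFB2 and AFB3 and 3.5 for AFB1. Over all sites its median was 3.5, and 17.1% of sites scored 2 or less. The stretch of cDNA aligned to the 22-nt miRNA was 22 nt long in AFB1, AFB2 and AFB3 and 23 nt in TIR1.

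**Figure D1:**
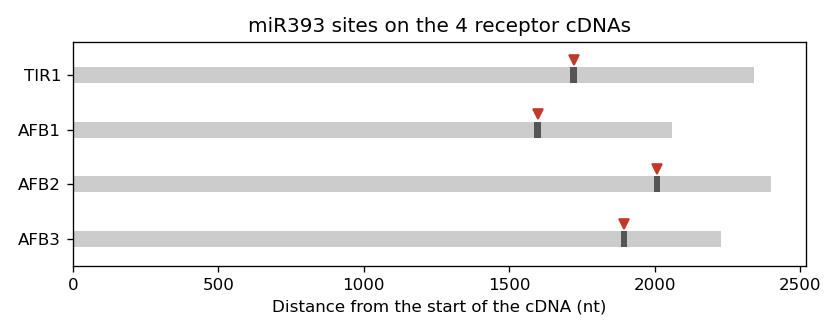
Position of the miR393 site on each receptor cDNA, drawn to scale in nt from the cDNA start. Grey bars are cDNAs, the dark block is the stretch aligned to miR393 and the triangle is the cleavage position, which lies between 73.5% and 85.0% of the cDNA length in the 4 genes.

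Cleavage reads at all 4 sites were higher in the CMS library, relative to its depth. TIR1, the founding auxin receptor, had 43 reads in CMS (interval 31.1 to 57.9) and 10 in MF (4.80 to 18.4). Scaled to depth, as RPM (in the degradome reads per 1000000 cDNA-mapped reads), this was 8.66 in CMS and 1.30 in MF, a ratio of 6.68 (exact 95% interval 3.31 to 14.9). The site also held a different rank within its own transcript. In CMS it was category 0, the single highest position of the transcript, with a CleaveLand p of 0.00926. In MF it was category 2, above the transcript's median but below its maximum, with a p of 0.184.

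AFB1, the receptor with the weakest match to miR393 here, had 41 reads in CMS (29.4 to 55.6) and 8 in MF (3.45 to 15.8). Scaled to depth this was 8.25 RPM in CMS and 1.04 RPM in MF, a ratio of 7.96 (3.69 to 19.7). The site was category 0 in both libraries (CleaveLand p of 0.00169 in CMS and 0.00221 in MF), as were 12.6% of all listed sites in CMS and 6.23% in MF. The intervals of the TIR1 and AFB1 ratios overlapped over most of their length.

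AFB2 and AFB3, a closely related pair of receptors, carried most of the reads. AFB2 had 724 reads in CMS (672 to 779) and 337 in MF (302 to 375), or 146 RPM in CMS and 43.7 in MF, a ratio of 3.34 (2.93 to 3.81). AFB3 had 745 in CMS (692 to 800) and 361 in MF (325 to 400), or 149.98 RPM in CMS and 46.8 in MF, a ratio of 3.21 (2.82 to 3.65). Both sites were category 0 in both libraries (CleaveLand p of 0.00926 in CMS and 0.0121 in MF). In the CMS library they ranked 1 (AFB3) and 2 (AFB2) by reads among all listed sites, and in MF 2 and 3, below only the miR403 site of AGO2. TIR1 and AFB1 ranked 9 and 10 in CMS, against 31 and 37 in MF. The AFB3 site had 17.3 times the reads of the TIR1 site in CMS and 36.1 times in MF.

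**Figure D2:**
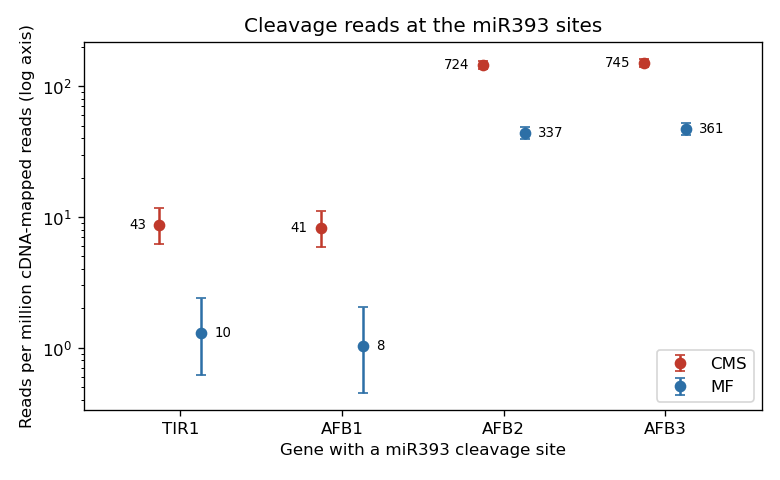
Cleavage reads as RPM of cDNA-mapped reads (log axis) at the miR393 site of each gene, CMS left and MF right, with 95% Poisson intervals and raw reads beside the points. The CMS point lies above the MF point for each gene, at 8.66 against 1.30 for TIR1 and 149.98 against 46.8 for AFB3.

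Reads at AFB2 and AFB3 were largely the same reads. The deposited tables also give each site's reads divided by the number of transcripts a read hits, and the difference between both values counts the shared reads if no read hits more than 2 transcripts. On that basis 723 of the CMS reads and 337 of the MF reads fitted AFB2 and AFB3 equally. AFB2 had 1 read of its own in CMS and 0 in MF, so the cutting of AFB2 cannot be told apart from that of AFB3. In CMS 1 further read was shared by AFB3 and TIR1. Counted once each, 829 distinct reads in CMS and 379 in MF lay at the 4 sites, which is 166.9 RPM in CMS and 49.1 in MF, a ratio of 3.40 (3.01 to 3.85). The reads shared by AFB2 and AFB3 made up 87.2% of them in CMS and 88.9% in MF.

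Among the classes with more than 1 read, those that fitted AFB3 alone differed least between the libraries. They numbered 21 in CMS and 24 in MF, or 4.23 RPM in CMS and 3.11 in MF, with a ratio of 1.36 and an interval (0.720 to 2.55) that includes equal levels. The reads shared by AFB2 and AFB3 had a ratio of 3.33 (2.93 to 3.80), and those of TIR1 alone, 42 in CMS and 10 in MF, a ratio of 6.53 (3.22 to 14.6). The upper end for the AFB3-only reads lay below the lower end for the AFB2 and AFB3 shared, TIR1-only and AFB1-only reads. These classes were compared after the values were seen and was not tested. The levels of the intact receptor transcripts were not measured in these libraries.

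**Figure D3:**
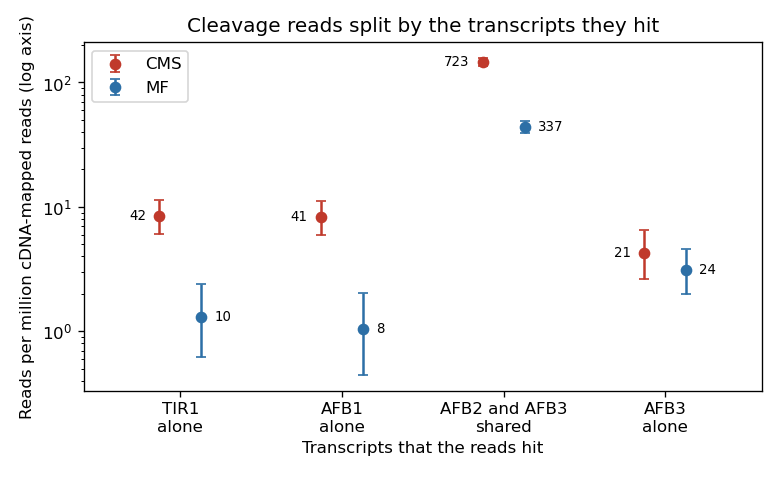
The same reads split by the transcripts they fit, as RPM of cDNA-mapped reads (log axis), CMS left and MF right, with 95% Poisson intervals and the number of reads. Intervals of CMS and MF overlap for the reads of AFB3 alone (21 against 24 reads) and are apart in the other classes, and classes with 1 read are left out.

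All 4 receptor sites were more than 2-fold higher in CMS. Of all 519 sites, 51 were (9.83%), and 23 were over 2-fold lower, where a site not listed in a library was set at 3 reads. Without scaling to depth, 31 sites were over 2-fold higher and 44 over 2-fold lower in CMS, and the 4 receptor sites were still among those higher. Most sites held very few reads, with a median of 1 in CMS and 2 in MF. Of the 32 sites with at least 20 reads over both libraries, to which the receptor sites belong, 19 were over 2-fold higher in CMS (59.4%). These include the 4 receptor sites and 15 of the 28 sites of other miRNAs. Sites of paralogous genes were counted separately though they can share reads, as AFB2 and AFB3 do. The counts and medians here therefore weight such reads repeatedly. The PC-3p-41 sites of AT1G07920, AT1G07930, AT1G07940 and AT5G60390 each had 27 reads in CMS and 8 in MF. SPL11 and SPL10 had 357 and 356 reads in CMS, against 223 and 224 in MF. The median log2 ratio of CMS over MF was 1.33 over the 32 sites and 1.22 over the 28. Against these values, AFB1 (log2 2.99) and TIR1 (2.74) had the highest ratios of the 32, followed by MYB65 (2.64), a miR159 target. AFB2 (1.74) and AFB3 (1.68) ranked 12 and 13. The receptor sites were chosen on these reads, so these ranks are a description.

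**Figure D4:**
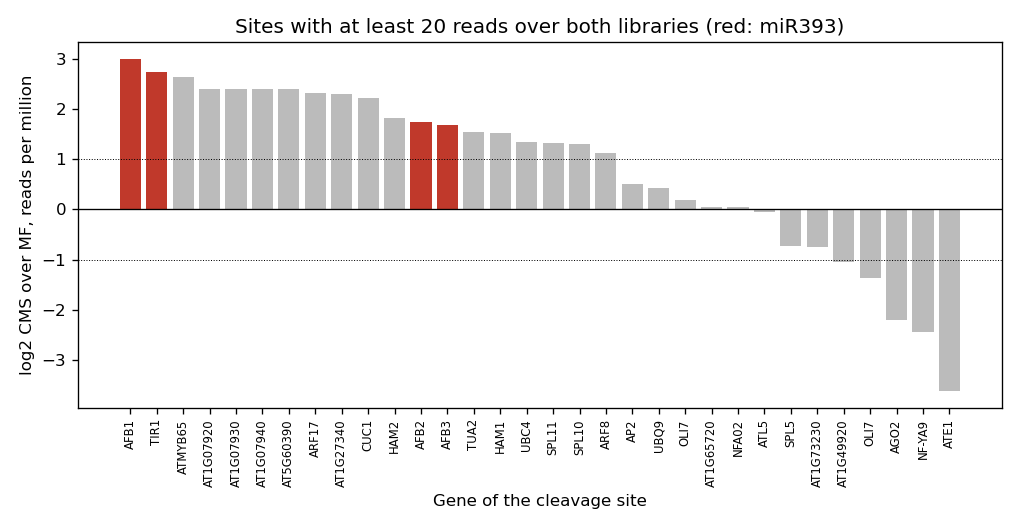
The log2 ratio of CMS over MF cleavage RPM at the 32 sites with at least 20 reads, highest first, with the miR393 sites in red and dotted lines at 2-fold. AFB1 (2.99) and TIR1 (2.74) stand first, AFB2 (1.74) and AFB3 (1.68) lie in the middle of the sites that were higher in CMS, and paralogous genes in this plot can share reads.

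Among the 28 sites of other miRNAs with at least 20 reads, those whose log2 ratio was nearest to that of the summed receptor sites (1.75) belonged to HAM2 (1.83), TUA2 (1.54) and HAM1 (1.52). HAM2 and HAM1, GRAS transcription factors of the shoot meristem, are targets of the miR170 and miR171 family and had 16 and 24 reads in CMS, against 7 and 13 in MF. TUA2, an alpha-tubulin, was listed with an entry of miR414 and had 71 reads in CMS and 38 in MF. The TUA2 site was category 2 in both libraries, while those of HAM2 and HAM1 were category 0 in both. Likeness here rests on 1 ratio between 2 libraries.

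Of the ARF genes, which act downstream of the receptors, and COI1, 4 of 9 on a list chosen for this pathway had a listed site. ARF17 was cut at its miR160 site with 51 reads in CMS and 16 in MF (log2 2.31), category 0 in both. ARF8 had 24 reads in CMS and 17 in MF at its main miR167 site (log2 1.13). As at TIR1, this site was category 0 in CMS and category 2 in MF. The miR414 site of NFA02, a gene outside this list, had the same categories, with 10 reads in CMS and 15 in MF (log2 0.05). ARF16 had 5 reads in MF and was not listed in CMS. ARF6 had at most 3 reads at a site in CMS and 5 in MF. Of the 6 listed sites in these genes, 2 (ARF17 and the main site of ARF8) were over 2-fold higher in CMS and 0 were over 2-fold lower. Both had at least 20 reads, a class in which 59.4% of sites were over 2-fold higher, against 9.83% of all sites. ARF2, ARF3, ARF4 and ARF10 were not listed.

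The contrast between the few reads of miR393 and the number of reads at its sites was the widest among the miRNA families that could be compared. For each family with a category 0 site, the RPM of cleavage reads at its top site was divided by the family's miRNA RPM over mappable reads. The quotient sets a pair of libraries made by different protocols side by side and has no meaning as a rate. For miR393 it was 68.4 in CMS and 34.3 in MF, highest of 17 families in CMS and of 16 in MF. miR157 came next, with 15.3 in CMS and 13.3 in MF. Its top site was also the top site of miR156, which had more miRNA reads. With the same cleavage reads the miR156 quotient was 0.557 in CMS and 0.334 in MF. Families can thus share a site and its reads, as miR159 and miR319 did at MYB65. For miR160 the quotient was 0.00936 in CMS and 0.00342 in MF. Families with 0 miRNA reads in a library (3 in CMS) gave no quotient. With 7 and 10 miRNA reads the value for miR393 is imprecise. Families ranked near it also rest on few miRNA reads: miR157 had 15 in CMS and 16 in MF, and miR414 had 2 in each. The order of these families was not tested.

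**Figure D5:**
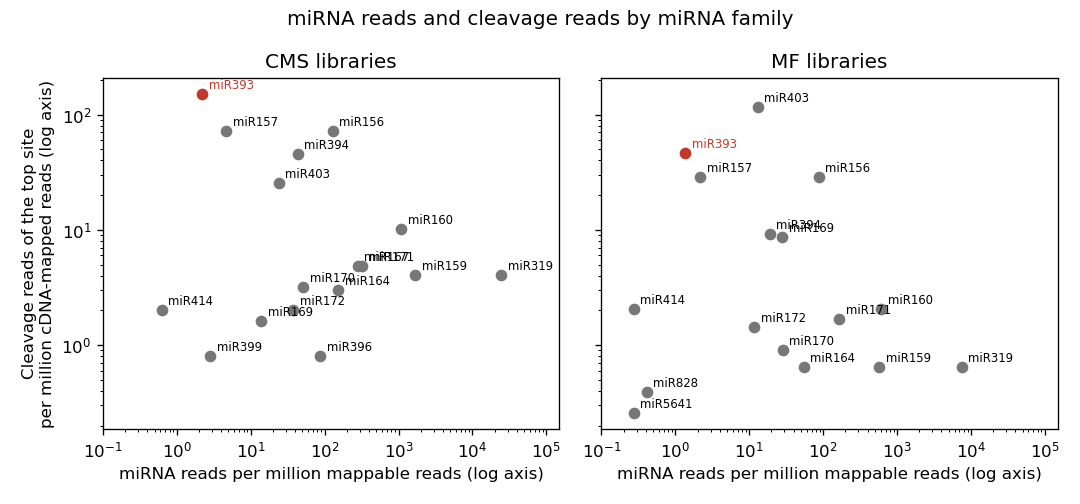
Cleavage RPM at the top category 0 site of each miRNA family against the family's miRNA RPM over mappable reads (both axes log), CMS libraries left and MF libraries right. miR393 (red) has few miRNA reads, 2.19 RPM in CMS and 1.36 in MF, and stands near the top of the cleavage axis in both panels. Families that share a top site lie at the same height.

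Beside the miR393 sites, the receptor genes held 2 further listed positions, both with an entry of miR5641. One lay on AFB3, 125 nt after the miR393 site, with 1 read in CMS and 2 in MF. The other lay on AFB1 with 1 read in CMS and no listed read in MF. Reads at these positions were fewer than at the miR393 site of the same gene in each library.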

How the data were processed

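Small RNA and degradome libraries of pooled floral buds (1 of each per line) were used as processed by the authors. The authors deposited raw read counts per miRNA and a normalized score whose factor was not given in the sources used here. From the most abundant miRNA it was 1.12 in CMS and 0.896 in MF. Degradome reads were assigned by the authors to Arabidopsis cDNA with the CleaveLand pipeline, and the deposited tables give read counts per site, a signal (reads divided by transcripts hit), a category and a p-value. B. juncea reads that differ from Arabidopsis may be missed. 1 degradome row that names no gene was left out.

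Identical miRNA sequences were joined and 1 isoform was kept per miRNA and gene. Calls needed an Audic-Claverie probability below 0.01/248, with Fisher and chi-squared values both below 0.01, on the deposited scores with equal totals of 1000000. Ratios are CMS over MF, with exact conditional binomial intervals. Python 3.11.15, scipy 1.17.1 and matplotlib 3.10.9 were used, and the code for both was tested on simulated counts. The named genes were TIR1, AFB1 to AFB5 and every gene listed with miR393, a list of COI1 and 8 ARF genes given by counts, and the 3 sites nearest in ratio. Members and lists were chosen with earlier results of these data known. Columns of the authors' own comparisons between lines (p-values of differential miRNAs) were not used.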

Additional observations from a re-analysis of the deposited data

How the results depend on the processing

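The log2 ratio of miR393 reads, CMS over MF, was -0.20 with the deposited factors and turned to 0.68 with mappable reads and 1.31 with raw reads as the scale. It kept its direction with total miRNA reads as the scale, whether miR319a/b was included or left out. Mappable reads left 19 called sequences in place of 35, with 16 higher and 3 lower in CMS in place of 13 and 22. The log2 ratio of the summed receptor sites was 1.75 and stayed above 0 in every setting run, at 1.12 without scaling, 1.53 when scaled by the reads of all other sites, and 1.76 with reads divided by transcripts hit. In settings added after seeing the data it was 2.86 without AFB2 and AFB3 and 0.44 for the reads of AFB3 alone. It was 1.77 when sites were limited to a CleaveLand p under 0.1. That limit drops the MF reads of TIR1 and keeps its CMS reads, which can only raise the ratio. Without scaling the single genes stood at 2.36 (AFB1), 2.10 (TIR1), 1.10 (AFB2) and 1.05 (AFB3). Sites over 2-fold higher and lower in CMS numbered 51 and 23 of 519, against 19 and 3 of 41 with category 0 only, 19 and 5 of 32 with at least 20 reads, and 31 and 44 without scaling. No replicate could be left out and no paired analysis was possible because each line gave 1 library per assay. Depth limits miR393 itself, whose 7 and 10 reads allow a ratio between 0.282 and 2.54.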
